A study of Homo sapiens with 4 samples.

Results

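The EGR, NR4A and IER genes are immediate-early genes that encode no AP-1 subunit, and 10 of them were selected by gene symbol from the 58735 genes of a read-count table. Each symbol matched 1 gene. The members are EGR1, EGR2, EGR3, EGR4, NR4A1, NR4A2, NR4A3, IER2, IER3 and IER5. They were followed in 4 RNA-seq libraries of MDA-MB-231, a long-established cell line from a human breast tumour of the triple-negative class. All 4 libraries came from cells transduced with TetOn-H2BeGFP, a doxycycline-inducible fluorescent histone. All cells received doxycycline at 5 μg/ml for 3 days, took up the Claret and Violet dyes and were then chased for 12 days, during which label is diluted by division. The groups Claret, eGFP and Violet are the 1% of cells that kept most of the named label, sorted as slow-cycling cells, and Bulk cells passed the same sorter with no fluorescence gate. Each group holds 1 library, so no difference below has a replicate check. Whether the transduced cells derive from 1 clone is not given in the sources used here.

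Immediate-early genes are transcribed within minutes of a growth factor or stress signal, from promoters already occupied by factors such as SRF and CREB, without new protein synthesis. Their transcripts are short-lived, so the level falls again when the signal ends. EGR proteins are zinc-finger transcription factors, NR4A proteins are nuclear receptors that act without a known hormone, and IER proteins are small and unrelated in fold to either. In breast cancer cells these genes respond to epidermal growth factor and serum through the ERK pathway.

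The libraries are named here by their titles. In every sample the treatment field names another sort, so that there Bulk reads Claret, Claret reads eGFP, eGFP reads Violet and Violet reads un-gated. Summed counts were between 15508179 and 16976909 reads per library. Against Bulk, all 8 genes of a proliferation list were called lower in Claret, eGFP and Violet, by the rule given below, and MKI67, a marker of cycling cells, had 6778 reads in the library titled Bulk against 689 to 995 in the others. The part of this difference in the results below was not tested. Of the markers of the line, VIM (12507 to 18488 reads), CD44, KRT18, AXL and CAV1 were read in every library. Of the receptors whose absence defines triple-negative tumours, PGR had 0 reads, ESR1 3 to 7 and ERBB2 1415 to 1542. Of other cell types, the leukocyte gene PTPRC had 0 to 2 reads, the endothelial gene PECAM1 54 to 87 and the fibroblast gene COL1A1 284 to 363.

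Together the 10 genes took 455 (Bulk), 1468 (Claret), 1543 (eGFP) and 1189 (Violet) CPM, here the read count scaled to the summed reads of the library alone. EGR1, NR4A1, IER2 and, at a low level, EGR2 were called higher in all 3 slow-cycling libraries than in Bulk, and IER3 was called higher in Claret and eGFP. IER5 differed little and NR4A2 was not detectably different. A gene was called when its log2 ratio reached 1 in either direction and the reads of the pair of libraries differed by an exact binomial test at an adjusted p under 0.05. That test compares these libraries, not the conditions. The ratios, and the CPM of single genes, are after TMM scaling as well, and the ratios alone use a prior count of 2. The 95% intervals are exact Clopper-Pearson intervals on the reads without a prior count, and cover counting error only. For genes with few reads, such as EGR2 and EGR3, the ratio is thus drawn toward 0 and its interval is not. Genes needed a mean of at least 1 CPM to be tested, which 14585 genes and 7 of the 10 members met. EGR3, EGR4 and NR4A3 did not. EGR2 met the filter only through the slow-cycling libraries, since it was at 0.254 CPM in Bulk. By this rule 5 of the 10 members were called higher in Claret, where 11.2% of the genes tested were called higher. The same number was called in eGFP, against 11.9% of the genes tested, and 4 in Violet, against 11.6%. EGR2 is among these, and passing the filter fixed its direction. Without EGR2, 4 (Claret), 4 (eGFP) and 3 (Violet) of the other 6 tested members were called higher, with medians of 1.26, 1.27 and 0.97. In the other direction 0 members were called in any library by this test, where 6.72% (Claret), 7.64% (eGFP) and 6.91% (Violet) of the genes tested were called lower. At an unadjusted p under 0.05, 0 members were lower either. Over the 7 tested members the median log2 ratio was 1.38 for Claret, 1.49 for eGFP and 1.09 for Violet, and over all genes tested it was -0.01, -0.01 and 0.01. In RNA of sorted cells, more cells that express a gene and more RNA per cell cannot be told apart.

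**Figure D1:**
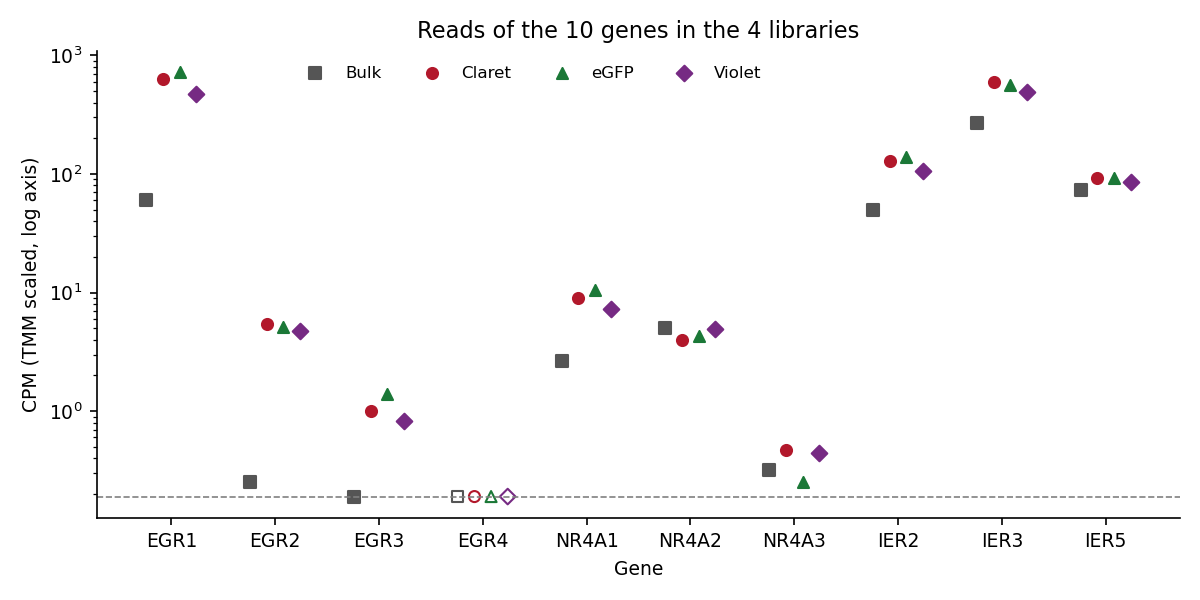
CPM of each of the 10 genes (x axis) on a log axis (y axis), with 1 point per library, and open symbols on the dashed line for 0 reads, set at the highest limit that 0 reads allow (0.191 CPM). EGR1 sat at 60.1 CPM in Bulk and between 475 and 725 CPM in the other libraries, while NR4A2 stayed between 3.95 and 5.01 CPM.

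EGR1 (ENSG00000120738, chromosome 5, 138465490 to 138469315 in GRCh38) is the founding EGR factor and binds GC-rich promoters. It had 947 (Bulk), 10649 (Claret), 11526 (eGFP) and 7478 (Violet) reads. All 3 slow-cycling libraries were far above Bulk, eGFP was highest and Violet was the lowest of the 3. EGR1 was 10.4-fold higher than Bulk in Claret, a log2 ratio of 3.38 (95% interval 3.29 to 3.48). In eGFP it was 12.0-fold higher, at 3.59 (3.497 to 3.69). In Violet it was 7.89-fold higher, at 2.98 (2.88 to 3.08). By ratio EGR1 ranked 54 (Claret), 49 (eGFP) and 91 (Violet) from the top of the 14585 genes tested. Per length, EGR1 rose from 19.4 FPKM in Bulk to 199.95 for Claret, 230 for eGFP and 148 for Violet. Its place by FPKM among 19951 protein-coding genes moved from 2568 in Bulk to 125, 104 and 166 in the same order. With libraries named by the treatment field instead, the log2 ratio of EGR1 to Bulk would be -2.98 (Claret), 0.40 (eGFP) and 0.61 (Violet).

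EGR2 (ENSG00000122877, chromosome 10, 62811996 to 62919900), a relative of EGR1 known from Schwann cell myelination and hindbrain patterning, had 4 (Bulk), 92 (Claret), 81 (eGFP) and 75 (Violet) reads. It was nearly unread in Bulk and at a similar low level in the 3 slow-cycling libraries. With so few reads in Bulk the ratios were imprecise. The log2 ratio was 3.87 for Claret (3.01 to 6.32), 3.79 for eGFP (2.92 to 6.24) and 3.69 for Violet (2.81 to 6.14). Because EGR2 was tested only for being high in these libraries, its ratios are given as a description. On the scale log2(FPKM + 1), where a low gene moves less, they were 1.21, 1.15 and 1.08.

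EGR3 (ENSG00000179388, chromosome 8, 22687659 to 22693302), which shares the DNA-binding fingers of EGR1 and is known from muscle spindles and lymphocytes, had 3 (Bulk), 17 (Claret), 22 (eGFP) and 13 (Violet) reads. Every slow-cycling library was above Bulk, on a handful of reads. The log2 ratio was 1.84 for Claret (0.60 to 4.81), 2.26 for eGFP (1.13 to 5.25) and 1.59 for Violet (0.25 to 4.57). EGR3 was too low for the filter. Without the filter, over 31079 genes with a read, the exact binomial test gave adjusted p = 0.0102 for Claret, 0.000642 for eGFP and 0.0633 for Violet. EGR4 (ENSG00000135625, chromosome 2, 73290929 to 73293705), the fourth member of the family, was without a read in any library (0 reads, a limit of 0.177 to 0.191 CPM).

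The rise of the family was thus carried by EGR1, which held 99.4% of the summed EGR FPKM in Bulk, 99.2% for Claret, 99.3% for eGFP and 99.04% for Violet. EGR2 held 0.357% in Bulk and 0.594% to 0.845% in the slow-cycling libraries. By reads, EGR2 made up 0.419% of the family in Bulk (95% Clopper-Pearson interval 0.114% to 1.07%) and 0.991% in Violet (0.78% to 1.24%), and these intervals overlap.

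**Figure D2:**
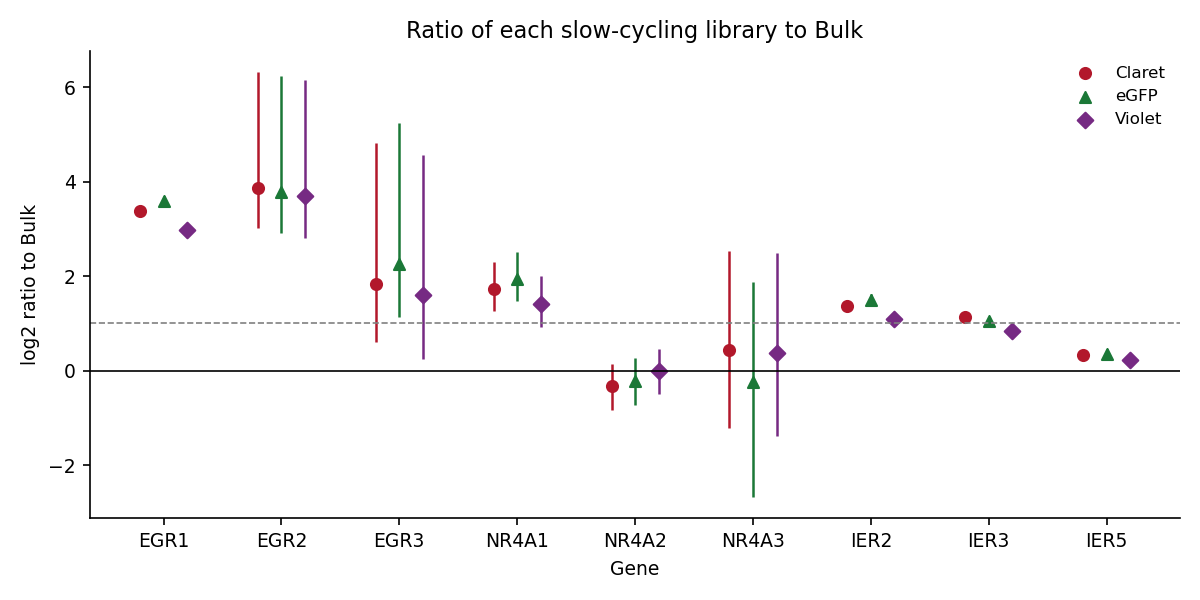
Log2 ratio to Bulk (y axis) of the 9 genes with a read (x axis), 1 point per slow-cycling library, with the 95% exact interval for counting error as a vertical line and the dashed line at 1. EGR1 lay between 2.98 and 3.59 with narrow intervals, EGR2 and EGR3 were higher than Bulk with wide ones, and the intervals of NR4A2 and NR4A3 crossed 0.

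EGR1 had the highest ratio of the tested members apart from EGR2, whose direction was fixed by the filter. The promoters of EGR1 and EGR2 are printed because they share a pair of elements for serum response factor and for CREB-type factors. The windows are the 250 bases before the transcript start in RefSeq (GRCh38.p14), 5′ to 3′ on the strand of the gene, with each CArG box and each TGACG (or its reverse, CGTCA) in capitals. EGR1 is chr5:138465229-138465478 on the plus strand. EGR2 is chr10:62816367-62816616 on the minus strand, the only one of its 3 listed starts with a CArG box.
EGR1: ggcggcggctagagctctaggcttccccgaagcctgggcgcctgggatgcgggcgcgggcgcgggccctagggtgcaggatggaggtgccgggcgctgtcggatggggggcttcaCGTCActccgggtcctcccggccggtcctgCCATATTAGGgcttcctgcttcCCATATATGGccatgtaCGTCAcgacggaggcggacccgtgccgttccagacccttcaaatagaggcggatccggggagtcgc
EGR2: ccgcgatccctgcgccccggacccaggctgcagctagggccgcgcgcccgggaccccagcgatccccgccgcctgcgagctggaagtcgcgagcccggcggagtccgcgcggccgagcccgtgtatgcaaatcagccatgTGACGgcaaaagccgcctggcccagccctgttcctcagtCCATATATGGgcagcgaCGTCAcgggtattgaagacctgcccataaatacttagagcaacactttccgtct

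The CArG boxes start at -105 and -83 in EGR1 and at -71 in EGR2, where -1 is the base before the transcript start. A CArG box, on either strand, occurs in 1.29% of the 35116 promoter windows in the RefSeq table, which run a little past the start and were all searched whole, and TGACG in 24.6%. Of the members, 7 had a promoter in that table, and EGR3, NR4A2 and IER3 were not matched. EGR4, NR4A1, NR4A3, IER2 and IER5 held no CArG box in these windows. TGACG occurred at 2 places in EGR4, 4 in NR4A3 and 1 in IER2. A match is a description and not a bound site. Among 161 tested genes with a CArG box in a listed promoter, 9.32% were called higher for Claret, 13.0% for eGFP and 10.6% for Violet. Among 10191 tested genes without one these shares were 9.52%, 10.1% and 9.75%.

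NR4A1 (ENSG00000123358, chromosome 12, 52022832 to 52059507), also called Nur77 and known for regulating apoptosis and metabolism, was the NR4A gene called higher. It had 42 (Bulk), 154 (Claret), 167 (eGFP) and 115 (Violet) reads, and Bulk was the lowest library by a wide margin. The log2 ratio was 1.72 for Claret (1.27 to 2.295), 1.93 for eGFP (1.48 to 2.503) and 1.41 for Violet (0.93 to 2.0002). In Violet the interval included 1, so reaching the size of a call was within counting error. The exact binomial test gave adjusted p-values of 5.55e-14, 4.02e-18 and 9.48e-09. On log2(FPKM + 1) NR4A1 was at 0.71, 0.83 and 0.53 and would not be called.

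NR4A2 (ENSG00000153234, chromosome 2, 156324432 to 156342348), also called Nurr1 and needed for dopamine neurons, had 79 (Bulk), 67 (Claret), 68 (eGFP) and 78 (Violet) reads. The 4 libraries lay close together. Its log2 ratio was -0.34 for Claret (-0.84 to 0.14), -0.22 for eGFP (-0.72 to 0.26) and -0.02 for Violet (-0.49 to 0.45), and the exact binomial test gave adjusted p-values of 0.203, 0.425 and 1. All 3 intervals lay within 1 log2 unit of 0. The sign in Violet depended on the scaling, at 0.03 with library size alone. NR4A3 (ENSG00000119508, chromosome 9, 99821855 to 99866891), the third receptor of the family and also called NOR-1, had 5 (Bulk), 8 (Claret), 4 (eGFP) and 7 (Violet) reads. Its intervals ran from -2.67 to 2.53, so a change of 2-fold could not be seen or left out at this depth.

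By reads, NR4A2 was above NR4A1 in Bulk and below it in the slow-cycling libraries. NR4A1 took 33.3% of the NR4A reads in Bulk (95% Clopper-Pearson interval 25.2% to 42.3%), 67.2% for Claret (60.8% to 73.3%), 69.9% for eGFP (63.6% to 75.6%) and 57.5% for Violet (50.3% to 64.4%). The interval of Bulk overlapped none of the other 3. Per length, NR4A1 made up 21.8% of the summed NR4A FPKM in Bulk against 53.8%, 56.3% and 43.1% in the slow-cycling libraries. NR4A2 remained the larger of the pair by FPKM in Violet, at 1.22 against 0.982, while NR4A1 was the larger in Claret (1.24 against 0.995) and eGFP (1.43 against 1.07). These FPKM use gene lengths of 7295 bases for NR4A1 and 3967 for NR4A2. The main GENCODE transcripts are 2678 and 3472 bases, so the FPKM shares and the order in Violet depend on the length used. The whole family stayed low, at 1.70 to 2.54 FPKM.

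IER3 (ENSG00000137331, chromosome 6, 30743199 to 30744554), a stress-inducible protein also called IEX-1 that modulates ERK signalling and cell survival, was the most abundant member per length. It had 4276 (Bulk), 10188 (Claret), 8905 (eGFP) and 7670 (Violet) reads, which is 203, 443, 411 and 352 FPKM. Bulk was lowest and Claret highest. The log2 ratio was 1.14 for Claret (1.09 to 1.196), 1.05 for eGFP (0.99 to 1.099) and 0.84 for Violet (0.79 to 0.90). In Violet it fell short of the size a call needs although the exact binomial test gave an adjusted p of 1.91e-213. The interval of eGFP included 1, so its place beyond that size was within counting error.

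IER2 (ENSG00000160888, chromosome 19, 13150415 to 13154908), a nuclear protein of the growth-factor response, had 783 (Bulk), 2195 (Claret), 2226 (eGFP) and 1664 (Violet) reads. All 3 slow-cycling libraries lay above Bulk, with Violet the lowest of them. The log2 ratio was 1.38 for Claret (1.26 to 1.499), 1.49 for eGFP (1.38 to 1.61) and 1.09 for Violet (0.97 to 1.21). In Violet the interval included 1, so reaching the size of a call was within counting error. The exact binomial test gave adjusted p-values of 4.73e-130, 1.84e-154 and 2.31e-71. IER2 transcripts hold 61.7% G and C, a share that 10.9% of the genes tested exceed, and with a correction for GC content the ratio in Violet was 0.91 and no longer called, nor was it on log2(FPKM + 1), at 0.997.

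IER5 (ENSG00000162783, chromosome 1, 181088712 to 181092899), which binds the heat-shock factor HSF1 together with the phosphatase PP2A, had 1155 (Bulk), 1559 (Claret), 1483 (eGFP) and 1346 (Violet) reads. The difference was small, with log2 ratios of 0.32 (0.21 to 0.44), 0.35 (0.24 to 0.46) and 0.22 (0.11 to 0.34). The exact binomial test gave adjusted p-values of 1.82e-08, 2.13e-09 and 0.000267, so the reads differed by more than counting error but by 1.27-fold at most. Its relative IER5L (ENSG00000188483) had 332 reads in Bulk against 273, 280 and 303 in Claret, eGFP and Violet. IER2, IER3 and IER5 have 1, 2 and 1 exons in their main GENCODE transcript. Genes with 1 exon make up 2.12% of the protein-coding genes tested, whose median is 9 exons.

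The promoter of IER5 is shown because IER5 is a known HSF1 target. A list of mostly heat-shock genes with the partners of IER5, below, also had medians under 0. The window is chr1:181088450-181088699 on the plus strand, with the heat-shock element core GAANNTTC and the ETS-type CCGGAA in capitals.
IER5: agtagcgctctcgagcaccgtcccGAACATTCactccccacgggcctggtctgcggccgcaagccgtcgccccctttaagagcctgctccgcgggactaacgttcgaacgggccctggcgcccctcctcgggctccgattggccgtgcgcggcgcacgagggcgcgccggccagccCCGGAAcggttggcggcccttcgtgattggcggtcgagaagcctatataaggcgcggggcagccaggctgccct

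GAANNTTC starts at -226 and CCGGAA at -74. On either strand they occur in 6.77% and 17.2% of all the promoter windows. Among 675 tested genes with GAANNTTC, the share called higher was 10.7% for Claret, 10.5% for eGFP and 11.3% for Violet, and among 9677 without it 9.43%, 10.1% and 9.66%.

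**Figure D3:**
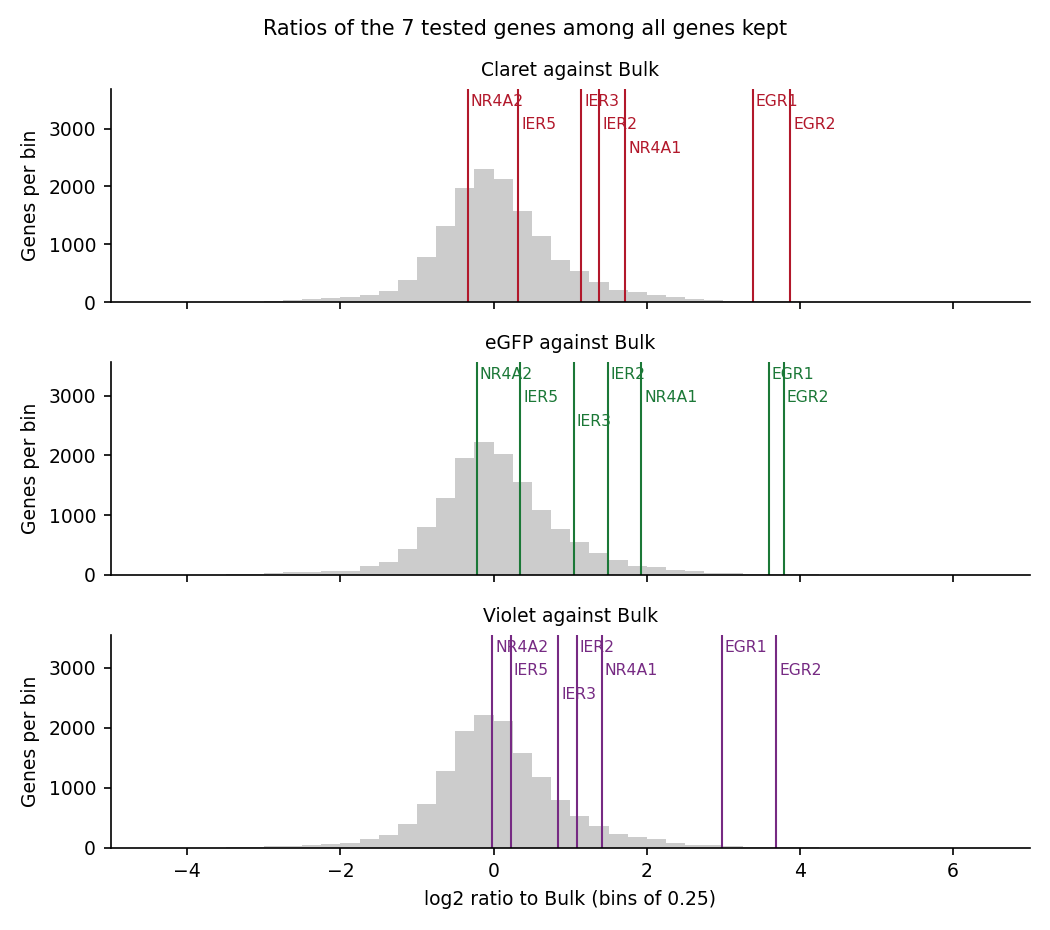
Number of tested genes per bin of 0.25 (y axis) by log2 ratio to Bulk (x axis), 1 panel per slow-cycling library, with a vertical line at each of the 7 tested members. EGR1 and EGR2 lay in the upper tail in each panel, from 2.98 to 3.87, whereas NR4A2 and IER5 lay within the bulk of the genes, from -0.34 to 0.35. For EGR2 the direction was fixed by the filter.

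The slow-cycling libraries were then compared with each other, because the series asks how dormant cells differ from one another. No member was called between any of these libraries, where 0.761% (Claret against eGFP), 0.802% (Claret against Violet) and 1.01% (eGFP against Violet) of the genes tested were called. Without the size limit, the exact binomial test found 2, 3 and 4 of the 7 members at an adjusted p under 0.05, where 12.6%, 17.4% and 17.2% of the genes tested were found. These counts depend on depth, since a small ratio passes in a gene with many reads. IER3, with 10188 and 8905 reads, passed for Claret against eGFP at a log2 ratio of 0.10. EGR1 was highest in eGFP. Its log2 ratio was 0.61 for eGFP against Violet (0.57 to 0.65; exact binomial test, adjusted p = 3.84e-179), 0.40 for Claret against Violet (0.36 to 0.44; exact, adjusted p = 7.26e-74) and -0.21 for Claret against eGFP (-0.25 to -0.17; exact, adjusted p = 1.58e-24). IER2 was lower in Violet than in eGFP by the same test (log2 ratio 0.41, 0.31 to 0.499) and than in Claret (0.29, 0.20 to 0.38). NR4A1 was higher in eGFP than in Violet, at 0.52 (0.17 to 0.88; exact binomial test, adjusted p = 0.0218). IER3 had another order, with Claret above eGFP by 0.10 (0.06 to 0.14) and above Violet by 0.30 (0.26 to 0.34). EGR2, NR4A2 and IER5 did not pass the exact binomial test, with adjusted p-values from 0.0941 to 0.867 and intervals that together ran from -0.82 to 0.65. With DESeq2 size factors, IER5 passed it for eGFP against Violet (log2 ratio 0.15, exact, adjusted p = 0.0423). Violet was thus the lowest of the 3 in EGR1, NR4A1, IER2 and IER3, and for NR4A1 its difference from Claret was within counting error (0.31, -0.05 to 0.67). The difference between dishes or sorts was not measured, since each population gave 1 library.

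**Figure D4:**
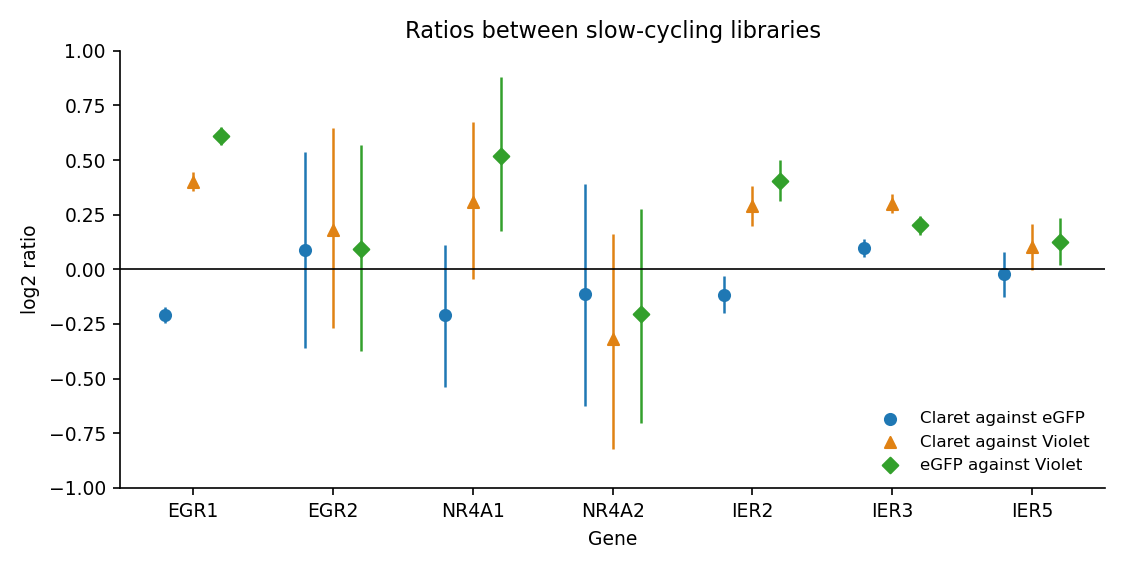
Log2 ratio (y axis) between slow-cycling libraries for the 7 tested members (x axis), 1 point per pair of libraries, with 95% exact intervals for counting error. EGR1, IER2 and IER3 lay above 0 in both comparisons against Violet, and no ratio was above 0.61 in size.

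Other immediate-early genes were read from a list of 34, all of which were tested. The count called higher and lower was 8 and 0 (Claret), 9 and 0 (eGFP), and 5 and 1 (Violet). Of all genes tested, 11.2%, 11.9% and 11.6% were called higher and 6.72%, 7.64% and 6.91% lower. The 5 called higher in Violet are near the share of all genes. Their median log2 ratio was 0.65, 0.77 and 0.62, below the members' medians and above the median of all genes. The 5 called higher in all 3 libraries were ATF3, GADD45A, ARC, KLF4 and ZFP36, where 8.49% of the genes tested were called higher in all 3. ATF3 (ENSG00000162772), a stress-induced bZIP factor, rose from 34 Bulk reads to 356, 380 and 318, with log2 ratios of 3.21, 3.40 and 3.15. GADD45A, a growth-arrest gene, was at 1.58, 1.54 and 1.38. ARC, best known from neurons, was at 1.42, 1.62 and 1.29, and KLF4 at 1.31, 1.35 and 1.25. SIK1, a kinase called in eGFP on 87 reads against 7 to 13 elsewhere, shares its sequence with a near-identical copy and is uncertain. It is among the 9 called in eGFP, but it met the filter only through that library, which fixed its direction. The gene called lower in Violet was ID1 (-1.12). SIK1 and ID1 were named after their values were seen.

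Factors that act on immediate-early promoters were read next. Of 18 such genes 0 were called higher in any library by the exact binomial test with the size limit, 2 were called lower in Claret and in eGFP and 1 in Violet. Of all genes tested, 11.2% (Claret), 11.9% (eGFP) and 11.6% (Violet) were called higher and 6.72%, 7.64% and 6.91% lower. The counts called lower are near those shares, and with 18 genes a count of 0 is not far from the share called higher. The medians of the 18 genes were -0.17, -0.20 and -0.16. SRF, which binds the CArG box, had 1535 reads in Bulk against 1487, 1204 and 1253 in Claret, eGFP and Violet, log2 ratios of -0.15, -0.36 and -0.29. RPS6KA4, a kinase that phosphorylates histones and CREB at these genes, was called lower in all 3, at -1.29, -1.18 and -1.24. The other was the SRF cofactor MRTFB (-1.11 and -1.25 in Claret and eGFP), named after its values were seen.

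Of 8 co-repressors and regulators of mRNA decay, 1 was called higher in Claret and Violet, 2 in eGFP and 0 lower in any, by the same test, with medians of -0.20, -0.11 and -0.13. Of all genes tested, 11.2% (Claret), 11.9% (eGFP) and 11.6% (Violet) were called higher and 6.72%, 7.64% and 6.91% lower. A count of 1 among 8 is near the share called higher. NAB2, a co-repressor of EGR factors and itself an EGR1 target, had 686 reads in Bulk against 1287, 1380 and 1172 in the others. Its log2 ratios were 0.80, 0.99 (0.86 to 1.13) and 0.77, none called, and only that of eGFP was just short of a call. NAB1 was at 0.20, 0.21 and 0.23. ZFP36, which marks AU-rich transcripts for decay, rose by 1.11, 1.32 and 1.21.

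Of 20 genes known as EGR1 targets, 7 were called higher for Claret, 6 for eGFP and 6 for Violet, and 1 lower in eGFP. Of all genes tested, 11.2%, 11.9% and 11.6% were called higher, and 7.64% lower in eGFP. The median log2 ratio was 0.62, 0.92 and 0.66. PDGFB, a growth factor, rose from 52 Bulk reads to 335, 380 and 322, with log2 ratios of 2.54, 2.81 and 2.59. The adhesion molecule ICAM1 was at 2.03, 2.49 and 2.47, and the angiogenic factor VEGFA at 1.53, 1.74 and 1.66. GADD45A, given above, was also called in all 3. Lists overlap, and GADD45A, ICAM1 and ZFP36 are among the genes that stand in 2 of them.

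Of 17 partners of IER5 and heat-shock genes 0 were called higher in any library by the same exact test. With 17 genes that count is not far from the share of all genes tested called higher (11.2%, 11.9% and 11.6%). Called lower were 3 for Claret, 4 for eGFP and 6 for Violet, where 6.72%, 7.64% and 6.91% of all genes tested were called lower. The medians were -0.73, -0.69 and -0.79, and single genes reached 0.19, 0.31 and 0.16. The chaperones HSP90AA1 (-1.52, -1.59 and -1.65) and HSPH1 (-1.38, -1.30 and -1.43) were called in all 3. HSF1 itself was at 0.19, 0.31 and 0.16. Of 11 tested NF-κB targets, the class to which IER3 belongs, 2 were called higher in each library, a share near that of all genes tested (11.2%, 11.9% and 11.6%), namely ICAM1 and the chemokine CXCL8 (1.75, 2.10 and 1.802). Their medians were 0.27, 0.57 and 0.46. NFKBIA, the feedback inhibitor of the pathway, was at -0.27, -0.08 and -0.13. HSF1 and NFKBIA were also named after their values were seen. Of 6 partners of NR4A receptors 5 were tested, and by the exact test with the size limit 0 were called, with medians of -0.17, -0.28 and -0.23. Of all genes tested, 11.2%, 11.9% and 11.6% were called higher and 6.72%, 7.64% and 6.91% lower.

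**Figure D5:**
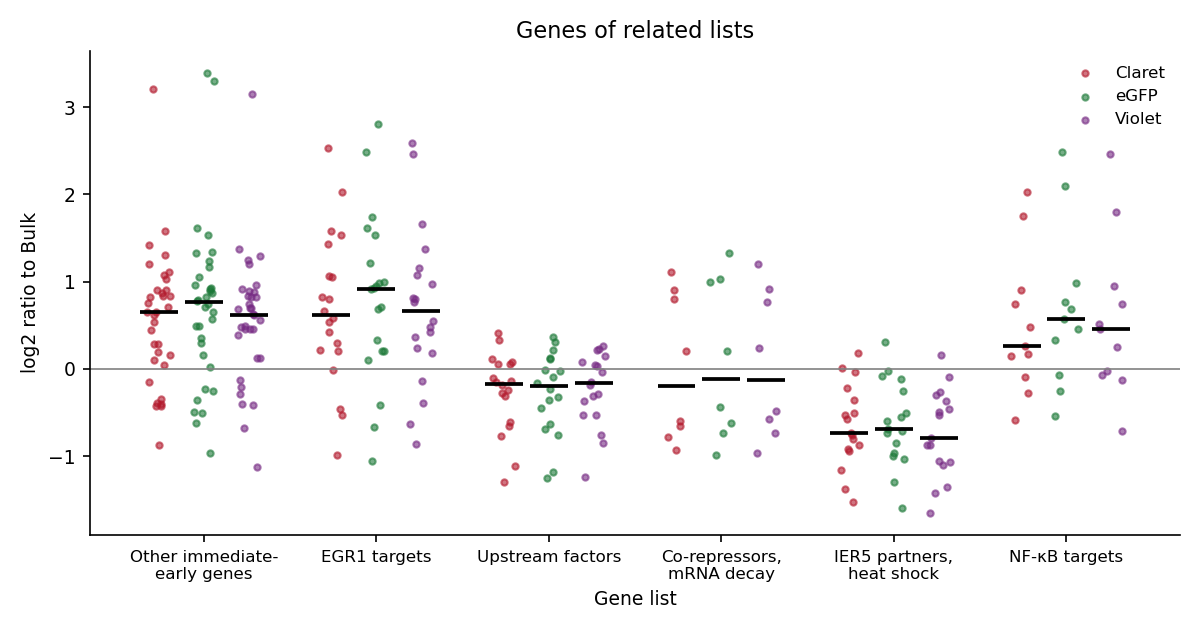
Log2 ratio to Bulk (y axis) of the tested genes of 6 lists (x axis), 1 point per gene and slow-cycling library, with the list's median as a black bar. The medians of the other immediate-early genes and of the EGR1 targets lay between 0.62 and 0.92, and those of IER5 partners and heat-shock genes between -0.79 and -0.69.

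Genes with the most similar pattern were sought for the most abundant member of each family, by the Euclidean distance of log2 CPM centred over the 4 libraries, among about 9754 protein-coding genes with a mean of at least 10 CPM. Nearest to EGR1 was AREG, the epidermal growth factor receptor ligand amphiregulin, at a distance of 0.18. AREG had 89 reads in Bulk against 875, 966 and 618 in Claret, eGFP and Violet, log2 ratios of 3.16, 3.40 and 2.77. GSDMB (0.27) and CTH (0.30), an enzyme of cysteine synthesis, followed. Nearest to NR4A1 were ISYNA1 (0.08), GDPD1 (0.11) and PLEKHA4 (0.11), and nearest to IER3 were TMEM231 (0.06), ETHE1 (0.06) and TAGLN (0.07). With 4 libraries such a distance describes a shape and no more.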

How the data were processed

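RNA of 4 sorted populations was sequenced from NEBNext Ultra libraries, per the labels' protocols. HISAT2 2.0.5 and featureCounts 1.5.0-p3 are named, with no role, in the submitters' processing notes, and the use of strand is not given in the sources used here. The authors deposited whole-number read counts per gene and FPKM values. The start and end of all 58735 genes equal those of GENCODE 29 (GRCh38). FPKM times length over count was 1 constant per library over all genes with a read, to within 2.84e-05%, so both tables hold the same reads. Antisense genes that overlap EGR3, NR4A1, IER2 and IER3 had at most 2 reads.

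Columns were matched to samples by title. TMM factors came from edgeR 4.0.16 in R 4.3.3, and log2 ratios of CPM used a prior count of 2. With 1 library per group no spread can be estimated for edgeR's quasi-likelihood test, so reads of 6 pairs of libraries were compared by a two-sided exact binomial test (scipy 1.17.1), with Benjamini-Hochberg adjustment over 14585 genes with a mean of at least 1 CPM. The members and lists were chosen with earlier results of these data known, and no list was tested. All 10 members are named; of each other list, up to 4 genes per direction called in all 3 libraries by their smallest ratio, and NAB1, NAB2, SRF, MKI67 and IER5L always. SOD2 matched 2 genes and was left out. Alternatives were library scaling (library size alone, or DESeq2 1.42.0 size factors), FPKM, a GC correction by a running median, the filter, the prior count, the call and the treatment field. Depth was 15508179 to 16976909 reads, and a count of 3 is 0.177 to 0.191 CPM. Some items are not reported here.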

Additional observations from a re-analysis of the deposited data

Results flagged for a closer look

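For 4 members the ratio to Bulk differed between slow-cycling libraries by a test of the difference itself, the exact binomial test on the reads of the 2 libraries, with an adjusted p under 0.05. All of them stayed under 2-fold, and each library is unreplicated. For EGR1 the log2 difference was -0.21 between Claret and eGFP, 0.40 between Claret and Violet and 0.61 between eGFP and Violet. For NR4A1 it was 0.52 between eGFP and Violet. For IER2 it was 0.29 between Claret and Violet and 0.41 between eGFP and Violet. For IER3 it was 0.10 between Claret and eGFP, 0.30 between Claret and Violet and 0.20 between eGFP and Violet.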

How the results depend on the processing

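No paired analysis was possible because each group holds 1 library. With groups from the treatment field, 0 members were called higher than Bulk in any group, and the members' median log2 ratio was -1.09 (Claret), 0.29 (eGFP) and 0.20 (Violet). A filter at 10 CPM left 4 members, of which 3, 3 and 2 were called in Claret, eGFP and Violet, and the median in eGFP was 1.34. A call on the scale log2(FPKM + 1) rests on the size of the ratio alone, with no test of the reads. On that scale the medians were 1.12, 1.01 and 0.79, 2 members were called in Violet, and 4 other immediate-early genes in place of 8 in Claret. The shares of all genes called under the 10 CPM filter and on log2(FPKM + 1) were not computed, so these counts are only a description. With the GC correction the medians were 1.21, 1.29 and 0.91. NR4A2 in Violet changed sign with library size alone (0.029) and with the GC correction (0.0539). Of 105 alternative values for member ratios to Bulk, 98 kept direction and side of the call. These covered the library scalings, FPKM, the GC correction and the prior count, but neither the filter nor the treatment field. Between slow-cycling libraries, over the scalings and the prior count, all 63 of 63 values did so. No ratio there was above 0.61 in size, so the side of the call could hardly change and that count is no check of it. With DESeq2 size factors IER5 came under the adjusted p threshold for eGFP against Violet without reaching the size of a call. Leaving out EGR2, an alternative chosen after seeing the data, gave medians of 1.26, 1.27 and 0.97 for 4, 4 and 3 members called. Why these values moved was not tested, beyond the fewer members the stricter filter leaves. Depth limits EGR3, EGR4 and NR4A3 most.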
